A study of Rattus norvegicus with 20 samples.

Results

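The injury response of the left dorsal root ganglion (DRG) was compared between a soy oil diet (SOD) and a fish oil diet (FOD). The comparison took the change after chronic constriction injury (CCI) on FOD minus the change after CCI on SOD, so a value above 0 means that a gene was higher after injury on FOD than its change on SOD would give. It used the 14 left libraries of the 20 in the series, chosen by their side, diet and surgery labels. Female wild-type Sprague-Dawley rats, young adults by the study's methods, ate one of the diets for 4 weeks before surgery. Every rat had its left sciatic nerve exposed. In CCI rats the nerve was then tied loosely with chromic gut, and in sham rats (CT) it was not. The left libraries comprised SOD-CT (n = 4), SOD-CCI (n = 3), FOD-CT (n = 3) and FOD-CCI (n = 4). Both diets were built on the AIN-93G formula, and the fat of FOD was replaced with fish oil rich in omega-3 fatty acids. Levels are given as CPM, counts brought to a common library total with edgeR's TMM factors, and changes as log2 fold changes.

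The DRG holds the cell bodies of the sensory neurons that carry touch, temperature and pain, wrapped by satellite glia and accompanied by Schwann cells, fibroblasts and macrophages. After a peripheral nerve is damaged, injured sensory neurons switch on a regeneration programme led by transcription factors such as Atf3 and Jun, change their ion channels and neuropeptides, and release Csf1, while macrophages gather in the ganglion. Omega-3 fatty acids enter cell membranes, lower the activity of the lipid synthesis regulator Srebf1 and are precursors of lipid mediators that dampen inflammation.

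Total counts per library lay between 22792829 and 54437581 (the biological coefficient of variation was 0.45, so the spread between rats rather than counting error set the precision). Several libraries stood apart. Skeletal muscle markers made up 13.9% of all counts in SOD-CT replicate 1 and 3.09% in FOD-CT replicate 2, against at most 0.758% elsewhere. Summed levels of spinal cord glia markers were 5258 CPM in FOD-CT replicate 1 and 4641 CPM in FOD-CCI replicate 1, against 353 to 686 CPM in the other 12, and central neuron markers in the same pair were 1131 and 1153 CPM against 24.3 to 97.3 CPM. Red cell markers reached 22730 CPM in FOD-CCI replicate 2. Sensory neuron markers were detected in every library, lowest in SOD-CT replicate 1 (14410 CPM) and FOD-CT replicate 1 (14540 CPM) and between 20970 and 35970 CPM in the others. In bulk tissue, fewer cells of a type and less RNA per cell cannot be told apart. The library labelled FOD-CCI replicate 1 also went against its label, because the summed level of a list of nerve injury genes was 874 CPM there, inside the sham range of 826 to 1370 CPM, whereas the other 6 CCI libraries had 2310 to 5870 CPM. Results are therefore given for all 14 libraries and again without SOD-CT, FOD-CT and FOD-CCI replicate 1, a fit of 11 libraries.

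**Figure D1:**
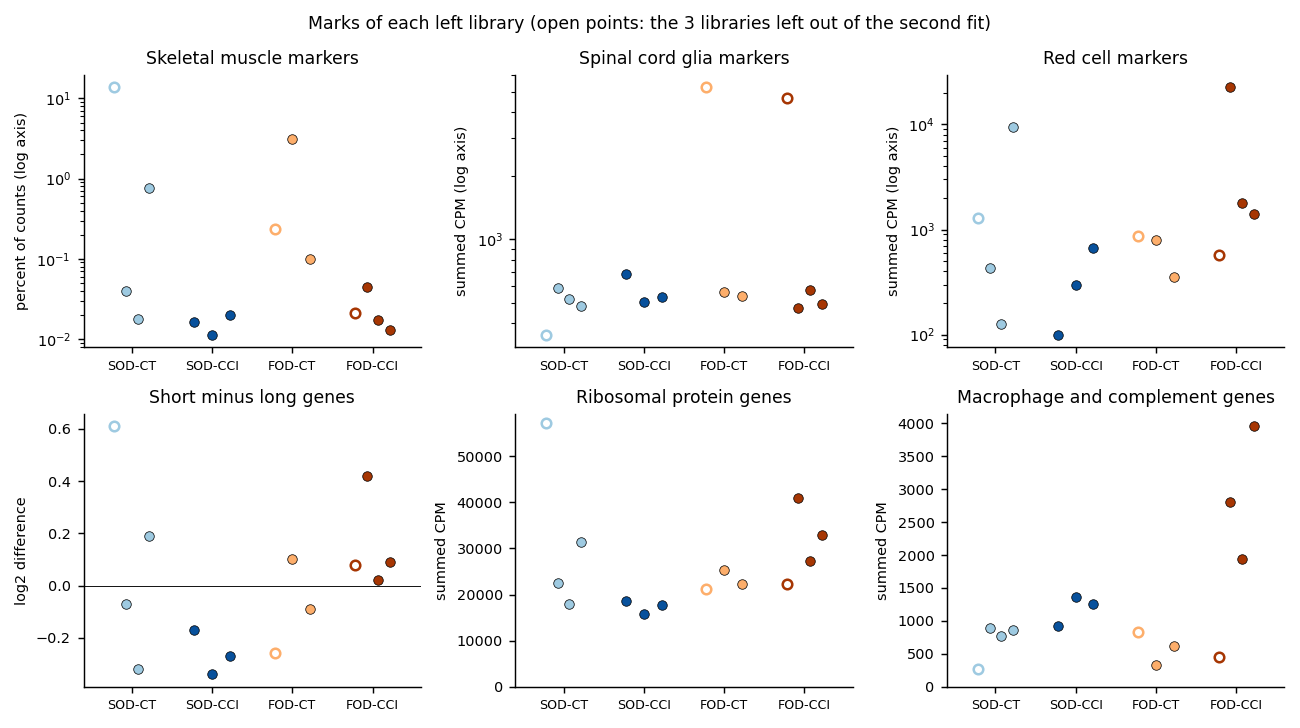
Marks of each left library by group, 1 point a library: skeletal muscle markers as a percent of counts, summed CPM of spinal cord glia and red cell markers (log axes), the mean log2 difference of short against long genes, and summed CPM of marker or gene lists. Open points are the 3 libraries left out of the second fit, with muscle at 13.9% in SOD-CT replicate 1 and spinal cord glia at 5258 and 4641 CPM in FOD-CT and FOD-CCI replicate 1.

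At the study's thresholds (fold 1.2 or more, adjusted p no higher than 0.1), no gene passed the interaction test. Of 14484 genes tested with edgeR's quasi-likelihood test, 0 were called (0%), and the smallest Benjamini-Hochberg adjusted p was 0.894. At an unadjusted p under 0.05 there were 725 genes (5.01%), of which 626 (4.32%) lay above 0 and 99 (0.684%) below. Without the 3 libraries, 0 of 15177 genes were called, the smallest adjusted p was 0.476, and 1041 genes (6.86%) had an unadjusted p under 0.05, 755 above 0 (4.97%) and 286 below (1.88%). Of the 725 genes, 406 also had an unadjusted p under 0.05 with the same sign without the 3 libraries, which is 56% of the 725 and 41.1% of the 988 such genes tested in both. DESeq2, the study's tool, called 42 genes (0.29%), all above 0, and limma voom with sample quality weights called 0 and had 1126 genes (7.77%) at an unadjusted p under 0.05. Every interaction of a gene below is therefore a value with its SE and not a call, unless a call by another tool is stated; the adjusted p of each named gene was 0.894 or more with all 14 libraries and 0.476 or more without the 3. Dropping a single library moved the 725 by over 1.5 times in 4 cases: FOD-CCI replicate 2 (417), SOD-CCI replicates 2 and 3 (419 and 469) and SOD-CT replicate 3 (1248). These p-values rest on the spread between the rats' libraries within groups, estimated for each gene as common to all groups. The groups' own spreads differed, since libraries correlated by rank at 0.976 to 0.983 within SOD-CCI and at 0.81 to 0.978 within SOD-CT.

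**Figure D2:**
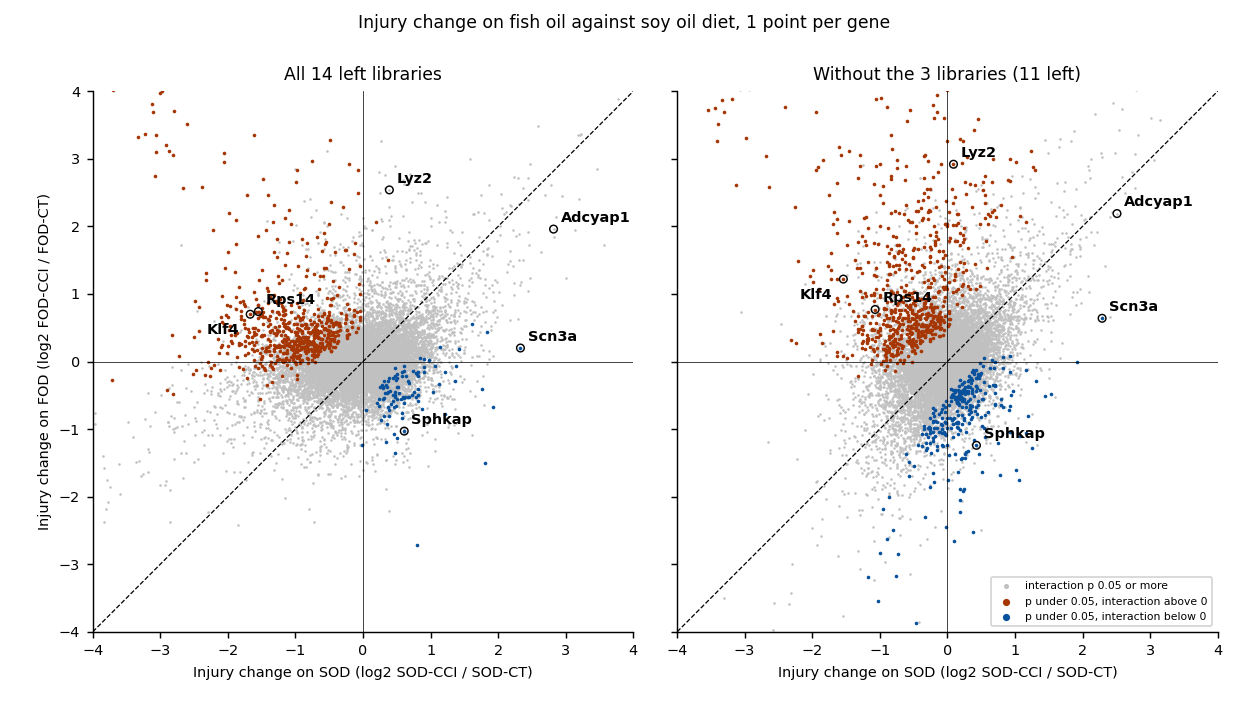
Injury change of each gene on SOD (horizontal axis, log2 SOD-CCI over SOD-CT) and on FOD (vertical axis, log2 FOD-CCI over FOD-CT) for all 14 libraries and without the 3 libraries; the dashed line marks equal change, and coloured points had an unadjusted interaction p under 0.05. Of 14484 genes, 66 and 53 lie outside the axes, and in the left panel most coloured points lie above the line among genes lower after injury on SOD (626 above and 99 below the line).

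The injury changes themselves moved strongly with the libraries used. On SOD, 2006 genes (13.8%) had an unadjusted p under 0.05 with all 14 libraries, 1275 of them lower after CCI (8.8%), and 731 higher (5.05%), and on FOD 654 (4.52%), 190 lower (1.31%) and 464 higher (3.2%). edgeR called 0 genes on either diet. In the fit of 11 it called 200 genes on SOD (1.32%) and 526 on FOD (3.47%), and the unadjusted counts were 1904 on SOD (12.5%, with 6.07% higher and 6.47% lower) and 2273 on FOD (15%, with 8.2% higher and 6.77% lower). With a replicate block as well, which treats libraries of the same number as pairs, 9 genes on SOD and 1 on FOD were called in that fit. Deviations from the group means of same-numbered FOD-CT and FOD-CCI libraries correlated at 0.42, 0.23 and 0.18 over genes, and those of SOD-CT and SOD-CCI libraries at 0.08, 0.08 and -0.06. The 0.42 was that of FOD-CT and FOD-CCI replicate 1, which both carried spinal cord markers. The labels do not say that a number is shared by design. The median size of the change over all genes was 0.37 on SOD and 0.23 on FOD in the fit of 14 and 0.28 and 0.30 in the fit of 11. Leaving out SOD-CT replicate 1 alone brought these medians to 0.27 and 0.24. More genes thus had an unadjusted p under 0.05 on SOD with all libraries and on FOD without the 3.

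To count genes whose injury change flipped or shrank, genes were picked at an unadjusted p under 0.05 on SOD and read in the FOD libraries, which share no sample with that choice. The interaction p of a gene so picked uses the same contrast as the choice and is a description. A flip was the opposite sign with a fold of at least 1.2, and a shrink was either the same sign at no more than 0.5 times the size or the opposite sign under that fold. With all 14 libraries 242 of the 2006 genes flipped (12.1%), 1278 shrank (63.7%) and 486 kept their change. Their median size was 1.01 on SOD and 0.19 in the same direction on FOD. Genes lower after injury on SOD behaved differently from genes higher after it, since 229 of 1275 lower genes flipped and 885 shrank, whereas 13 of 731 higher genes flipped, 393 shrank and 325 were kept. Picking genes on one diet by itself makes the other diet's change look smaller. Picked the other way, 98 of the 654 FOD genes flipped (15%) and 232 shrank on SOD (35.5%). Over all 14484 genes the shares were 17.9% and 49.8% with SOD read before FOD, and 26.7% and 28.8% with FOD read first. For genes picked on either diet, the share that flipped was thus below that of all genes in the same order. The share that shrank was above it. Among the 11 libraries 191 of 1904 SOD genes flipped (10%) and 719 shrank (37.8%), against 222 (9.77%) and 1177 (51.8%) of 2273 genes picked on FOD. In that fit flips and shrinks together were 47.8% of the genes picked on SOD and 61.5% of those picked on FOD, against 56% and 59.1% of all genes read in the same order.

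**Figure D3:**
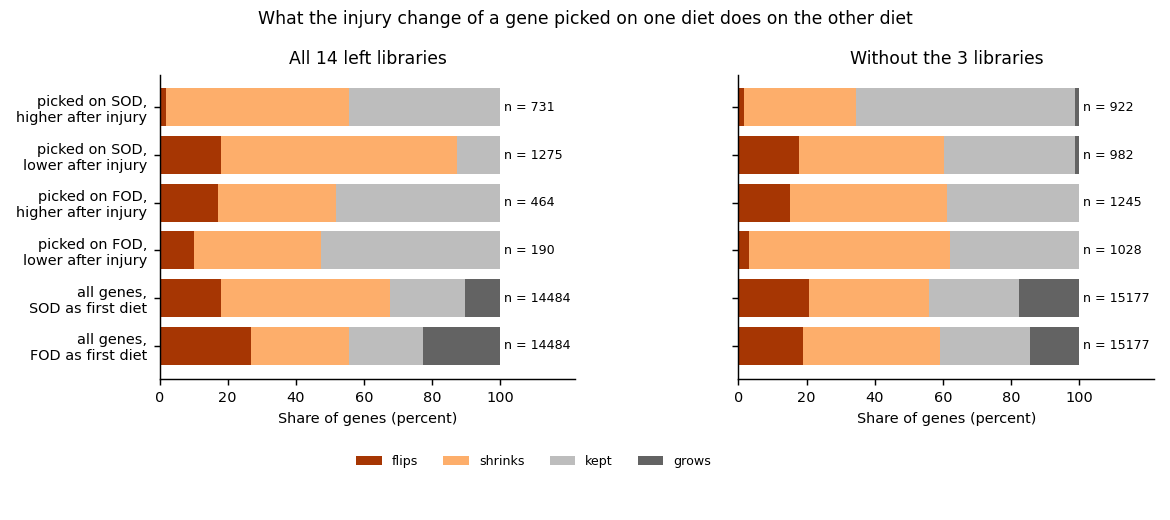
Share of genes (percent) whose injury change on the other diet flipped, shrank, was kept or grew, for genes picked at an unadjusted p under 0.05 on each diet and for all genes, with all 14 libraries and without the 3. With all libraries 69.4% of the genes lower after injury on SOD shrank and 18% flipped; shrinking is the larger share for genes picked on SOD in the left panel and for genes picked on FOD in the right.

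Among genes with a symbol that lay above 0, Klf4 had the smallest interaction p with all 14 libraries, and it flipped. It encodes a Krüppel-like transcription factor induced as an immediate early gene and also used in macrophages and vessel walls. Its level was 15.8, 9.25, 10.7 and 13.4 CPM in SOD-CT replicates 1 to 4 and 2.76, 4.89 and 3.95 CPM in SOD-CCI. On FOD it was 13.3, 5.33 and 9.42 CPM in the sham rats and 8.49, 21.2, 12 and 18.9 CPM after CCI. All SOD-CCI libraries lay below all SOD-CT libraries, and the FOD groups overlapped. The injury change was -1.67 ± 0.41 (SE) on SOD and 0.70 ± 0.40 on FOD, a difference of 2.36 ± 0.57 (adjusted p = 0.894, edgeR). In the fit of 11 the changes were -1.54 and 1.22 and the difference 2.76 ± 0.52 (adjusted p = 0.665), and the fall on SOD was then called (adjusted p = 0.0765, edgeR). With any 1 library left out the difference stayed between 2.08 and 3.25.

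Other immediate early genes, which neurons and glia switch on within minutes of a stimulus, were mixed. Of 16 listed 15 were tested and 11 lay above 0 in the interaction (median 0.49, against 0.02 for all genes). Klf4 and Ier2 had p under 0.05, as 5.01% of all genes did. In the fit of 11 the median was 0.60 and Klf4, Ier2, Klf2, Egr1 and Btg2 had p under 0.05. Their interactions were 2.76, 1.68, 1.97, 2.14 and 1.36, where 4.97% of all genes lay above 0 at that level. Ier2, a nuclear regulator of early transcription, was 12.4, 15.4, 12.8 and 24.1 CPM in SOD-CT, 7.95, 13.5 and 12.8 CPM in SOD-CCI, 14.1, 9.76 and 10.5 CPM in FOD-CT and 13.3, 21.3, 19 and 23.2 CPM in FOD-CCI. Its groups overlapped on both diets, and the interaction was 1.25 ± 0.45, or 1.68 ± 0.43 without the 3. In contrast, Junb, Fos and Atf3, partners in AP-1 and related dimers, had interactions of -0.09, -0.32 and 0.17.

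Sequences before the annotated starts of Klf4 and Ier2 are shown because the pair moved together in both fits. That of the ribosomal protein gene Rps14 is shown because it had the smallest interaction p of its list. Each sequence is the 250 bases before the RefSeq start on GRCr8, 5' to 3' on the gene's strand, and capitals mark a cyclic AMP response element (CRE, TGACGTCA) or an ETS core (CCGGAAG or, read on the other strand, CTTCCGG). The window of Klf4 (chr5:75078593-75078842, minus strand) holds neither, that of Ier2 (chr19:40399123-40399372, plus strand) 1 CRE, and that of Rps14 (chr18:56498010-56498259, plus strand) 2 ETS cores. Whether each RefSeq start is where transcription begins was not tested. A window may therefore lie outside the promoter, and a motif missing from it may still be present there.
Klf4: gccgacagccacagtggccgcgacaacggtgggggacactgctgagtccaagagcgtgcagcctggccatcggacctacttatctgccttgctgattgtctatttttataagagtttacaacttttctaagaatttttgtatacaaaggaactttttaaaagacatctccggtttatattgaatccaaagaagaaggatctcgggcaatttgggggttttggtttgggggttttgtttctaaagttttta
Ier2: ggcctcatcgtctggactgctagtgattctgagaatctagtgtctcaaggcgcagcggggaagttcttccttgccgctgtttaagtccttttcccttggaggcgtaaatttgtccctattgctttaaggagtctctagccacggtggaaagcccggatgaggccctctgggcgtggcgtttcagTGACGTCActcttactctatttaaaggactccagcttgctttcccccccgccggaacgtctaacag
Rps14: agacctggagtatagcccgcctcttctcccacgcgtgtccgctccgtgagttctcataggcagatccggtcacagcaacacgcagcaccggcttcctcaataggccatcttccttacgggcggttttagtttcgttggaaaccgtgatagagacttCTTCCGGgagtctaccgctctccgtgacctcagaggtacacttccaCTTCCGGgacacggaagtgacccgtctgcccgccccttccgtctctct
Over 33469 RefSeq windows of that length, 1.59% held the CRE and 7.27% the ETS core, searched on both strands. Among the 10 windows of immediate early genes 3 held the CRE (30%) and 0 the ETS core. The ETS core was in 14 of 61 windows of cytosolic ribosomal protein genes (23%), which covered 60 of the 80 genes tested, and in 16 of 63 windows of oxidative phosphorylation genes (25.4%). These letter matches describe the windows only.

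Cytosolic ribosomal protein genes encode the proteins of the translating ribosome. They were the largest list and had the most members at an unadjusted interaction p under 0.05. Of 80 tested, 80 lay above 0 (median 1.12) and 55 had p under 0.05, against 4.32% of all genes above 0 at that level. On SOD their median change was -0.73, with 41 of them lower at p under 0.05 (8.8% of all genes), and on FOD it was 0.38. Of those 41, 28 flipped and 13 shrank, where 18% of all genes lower on SOD at that level flipped and 69.4% shrank. Rps14 was 1680, 568, 414 and 920 CPM in SOD-CT, 312, 260 and 347 CPM in SOD-CCI, 429, 631 and 579 CPM in FOD-CT and 555, 1520, 764 and 805 CPM in FOD-CCI. The SOD-CCI libraries lay below all SOD-CT libraries, with SOD-CT replicate 1 far above the rest, and the FOD groups overlapped only through FOD-CCI replicate 1. Its changes were -1.55 and 0.74 and the interaction 2.29 ± 0.63, called by DESeq2 (adjusted p = 0.0494). Of the 42 genes DESeq2 called (0.29% of all tested), 16 were among the 80 ribosomal protein genes and 9 among the 75 oxidative phosphorylation genes tested. They also included the haemoglobin genes Hba1 and Hba2, named here after their values were seen, which were 11900 and 4300 CPM in FOD-CCI replicate 2 and 5430 and 1690 CPM in SOD-CT replicate 4, against at most 990 and 391 CPM elsewhere.

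The ribosomal protein direction was also present without the 3 libraries, where 79 of 80 lay above 0 and the median was 0.83. In that fit 49 had an interaction p under 0.05, against 6.86% of all genes. At that level 28 were lower on SOD and 28 higher on FOD (6.47% and 8.2% of all genes). Summed over the list, SOD-CT had 57100, 22600, 17900 and 31400 CPM, SOD-CCI 18600, 15800 and 17700 CPM, FOD-CT 21200, 25400 and 22200 CPM and FOD-CCI 22200, 41000, 27200 and 33000 CPM. SOD-CT replicate 3 lay inside the SOD-CCI range and FOD-CCI replicate 1 at the level of the FOD shams. Gene length moved with the same contrast. Genes above 0 at p under 0.05 had a median length of 1039 bases and those below 0 of 3881, against 2357 for all tested. The mean difference of short (at most 1501 bases) against long (at least 3759 bases) genes was 0.61, -0.07, -0.32 and 0.19 on the log2 scale in SOD-CT, -0.17, -0.34 and -0.27 in SOD-CCI, -0.26, 0.1 and -0.09 in FOD-CT and 0.08, 0.42, 0.02 and 0.09 in FOD-CCI. After a length correction added once the data had been seen, 65 of 80 ribosomal protein genes lay above 0 and the median was 0.35. Of the 80, 18 then had p under 0.05, against 3.6% of all genes. Values of other genes and lists, oxidative phosphorylation and selenium genes included, are without this correction unless it is stated. What produced the length pattern was not tested. Ribosomal protein genes have many pseudogenes, and how reads that fit several places were counted is not given in the sources used here, so single values such as that of the pseudogene Rpl36a-ps2 (2.70 ± 0.66) are uncertain.

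Nuclear genes for oxidative phosphorylation (OXPHOS), the subunits of the mitochondrial respiratory chain and ATP synthase, had a median interaction of 1.23 with all 14 libraries. Of 75 tested, 73 lay above 0 and 21 had p under 0.05 (5.01% of all genes). On SOD 48 were lower after injury at p under 0.05 (8.8% of all genes), of which 8 flipped and 40 shrank on FOD. The share that flipped was close to the 18% of all genes lower on SOD. That pattern rested largely on SOD-CT replicate 1, the library with 13.9% muscle counts. Its summed OXPHOS level was 55500 CPM, against 12800 to 17700 CPM in the other SOD-CT libraries and 10100 to 20000 CPM in every other group. Without that library the median was 0.38. Without the 3 libraries it was 0.18, with 53 of 76 above 0 and 8 at p under 0.05 (6.86% of all genes). Ndufa5, a subunit of complex I, was 754 CPM in SOD-CT replicate 1 and 162 to 273 CPM in the other SOD-CT libraries, and its interaction went from 1.87 ± 0.71 to 0.92 ± 0.43.

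Selenium and selenoprotein genes, which include the glutathione peroxidases that detoxify peroxides, also lay mostly above 0. Of 21 tested, 18 were above 0 (median 0.61) and 6 had p under 0.05, against 5.01% of all genes. Of the 8 at p under 0.05 on SOD 4 flipped, 3 shrank and 1 was kept. Of all genes at that level 12.1% flipped and 63.7% shrank, and of those lower on SOD 18% and 69.4%. With the 3 left out, 16 were above 0 and 7 had p under 0.05 (6.86% of all genes). The median was then 0.56, which fell to 0.26 when SOD-CT replicate 4 was dropped as well. Gpx4, which reduces lipid peroxides in membranes, was 1610, 721, 593 and 846 CPM in SOD-CT, 480, 360 and 444 CPM in SOD-CCI, 494, 901 and 836 CPM in FOD-CT and 880, 1330, 680 and 778 CPM in FOD-CCI. It was lower in every SOD-CCI library than in every SOD-CT library, and the FOD groups overlapped. Its changes were -1.14 on SOD and 0.30 on FOD, a difference of 1.44 ± 0.51, called by DESeq2 (adjusted p = 0.0953), and 0.85 ± 0.38 without the 3, or 0.49 without FOD-CCI replicate 2 as well. Gpx1, the cytosolic peroxidase, had 2.01 ± 0.78 and 1.39 ± 0.61 in the fits of 14 and 11. It was 1.30 without SOD-CT replicate 1 alone, and 0.66 when FOD-CCI replicate 2 was dropped from the 11. Selenos, an endoplasmic reticulum selenoprotein, had 1.10 ± 0.41 and 0.96 ± 0.41. Pstk, the kinase that prepares the tRNA for selenocysteine, rested on SOD-CT replicate 1 at 60.7 CPM, against 5.85 to 18 CPM in the other SOD-CT libraries, and its interaction of 2.14 was 0.67 without the 3. Txnrd1, thioredoxin reductase, lay below 0 (-0.48), with changes of 1.00 on SOD and 0.51 on FOD. The selenium values given here are not corrected for gene length, with which the interaction also moved.

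Genes that shrank with an interaction p under 0.05 numbered 219, of which 191 were lower and 28 higher after injury on SOD. Among the 10 with the smallest interaction p, 9 had a symbol, and Scn3a was the only one of those higher after injury on SOD. The other 8 were lower after injury on SOD. Smim15, a small membrane protein, was 67 to 110 CPM in SOD-CT, 37.7 to 47.6 CPM in SOD-CCI, 50.6 to 68 CPM in FOD-CT and 46.5 to 75.5 CPM in FOD-CCI. The SOD groups did not overlap and the FOD groups did. Its change was -1.03 on SOD and 0.05 on FOD, a difference of 1.08 ± 0.32, and without the 3 libraries 0.97 ± 0.29. Supt4h1, a transcription elongation factor, Sf3b6, a splicing factor of the U2 particle, Commd3, Actr6 and Dpy30, a subunit of histone methyltransferase complexes, had changes on SOD of -0.82 to -1.31 and on FOD of 0.17 to 0.25, with interactions of 1.05 to 1.49, and without the 3 libraries of 0.82 to 1.36. Rps21, a ribosomal protein, had 1.46 and, after length correction, 0.33. Aamdc was 87.2 CPM in SOD-CT replicate 1 and at most 14.5 CPM in every other library, and its interaction fell from 3.44 to 1.58 without the 3.

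Genes that flipped with an unadjusted p under 0.05 on each diet numbered 14 of the 243 at that level on both, and each was lower after injury on SOD and higher on FOD. The other 229 moved the same way, 160 higher and 69 lower. In the fit of 11, 40 of 702 moved in opposite directions, 37 of them lower on SOD. Among the 10 with the smallest interaction p, 4 had a symbol. Tprkb, a subunit of the KEOPS complex that modifies transfer RNAs, was 27.7, 23.4, 22 and 36.9 CPM in SOD-CT, 19.8, 17.7 and 14.3 CPM in SOD-CCI, 14.6, 15.8 and 19.6 CPM in FOD-CT and 23.5, 27.1, 26 and 38.4 CPM in FOD-CCI. Neither diet's groups overlapped, and the FOD shams lay at the level of the injured SOD rats. Its changes were -0.67 and 0.78 and the interaction 1.46 ± 0.36, or 1.45 ± 0.38 without the 3 and 0.95 after length correction. Chchd2, a mitochondrial protein, was low, at 1.6 to 9.5 CPM in SOD-CT, 0.851 to 1.59 CPM in SOD-CCI, 1.1 to 2.25 CPM in FOD-CT and 2.33 to 5.87 CPM in FOD-CCI. Its interaction was 3.43 ± 0.92, and 3.29 ± 1.06 without the 3. Igha, the heavy chain of immunoglobulin A, and Mmp13, a collagen-degrading protease, rested on single libraries. Igha was 294 CPM in FOD-CCI replicate 2 and 79.6 CPM in SOD-CT replicate 4, against at most 10.9 CPM elsewhere, and Mmp13 was 31.5 CPM in FOD-CCI replicate 2 and at most 4.3 CPM elsewhere. FOD-CCI replicate 2 was also the library highest in red cell markers (22730 CPM) and SOD-CT replicate 4 the next (9461 CPM), and whether that bears on Igha was not tested. Atg10, an enzyme of autophagosome formation with an interaction of 2.66 ± 0.70, also differed between the shams, at 7.53 to 28.1 CPM on SOD and 3.11 to 6.85 CPM on FOD.

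**Figure D4:**
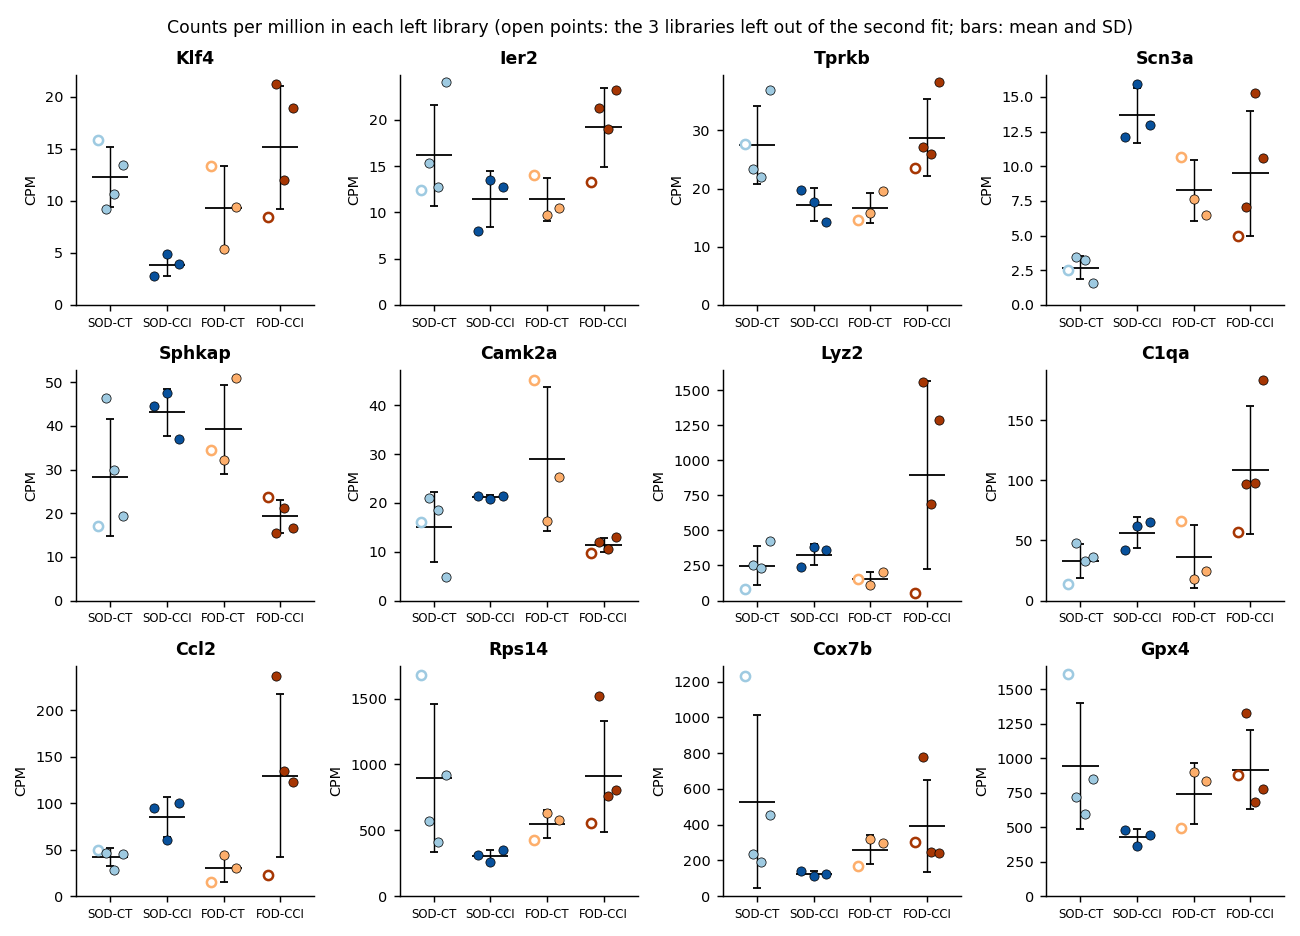
CPM of 12 genes in each left library by group, with the mean and SD; open points are the 3 libraries left out of the second fit. Klf4 and Rps14 were lower in every SOD-CCI than in every SOD-CT library, Scn3a was 1.57 to 3.48 CPM in SOD-CT and 6.46 to 10.7 CPM in FOD-CT, and Lyz2 was highest in FOD-CCI replicates 2 to 4.

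Below 0, the gene with the smallest interaction p was Scn3a, which encodes Nav1.3, a sodium channel of the developing nervous system that sensory neurons re-express after nerve damage. It was 2.51, 3.48, 3.25 and 1.57 CPM in SOD-CT and 12.1, 15.9 and 13 CPM in SOD-CCI. On FOD it was 10.7, 7.61 and 6.46 CPM in the shams and 4.99, 7.08, 15.3 and 10.6 CPM after CCI. The SOD groups were far apart, whereas the FOD groups overlapped, with FOD shams above every SOD sham. The change was 2.33 ± 0.41 on SOD and 0.20 ± 0.40 on FOD, a difference of -2.13 ± 0.57 (adjusted p = 0.894, edgeR). In the fit of 11 Scn3a rose on SOD by 2.29 (adjusted p = 0.0343, edgeR), its change on FOD was 0.64 ± 0.40, and the difference was -1.66 ± 0.53.

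Sphkap, a protein that anchors protein kinase A and is abundant in neurons, was 17.1, 46.5, 29.9 and 19.3 CPM in SOD-CT, 44.6, 47.6 and 37.1 CPM in SOD-CCI, 34.5, 32.2 and 51 CPM in FOD-CT and 23.8, 15.5, 21.1 and 16.7 CPM in FOD-CCI. The FOD groups did not overlap and the SOD groups did, through SOD-CT replicate 2. Its changes were 0.61 and -1.03, with an interaction of -1.64 ± 0.45 and -1.66 ± 0.44 without the 3, where the fall on FOD was called (adjusted p = 0.0832, edgeR). Tenm1, a teneurin of neuronal connections, was 15.4 to 26.6 CPM in FOD-CT and 10.7 to 13.7 CPM in FOD-CCI, with no overlap, and 17.9 to 29.5 CPM on SOD. Its interaction was -1.12 ± 0.33, -1.05 ± 0.34 without the 3 and -0.67 after length correction. Trim24, a transcriptional co-regulator, Tnrc6a, a scaffold of microRNA silencing, and Nrbp2 had interactions of -1.19, -1.06 and -0.85, and of -1.03, -0.67 and -0.62 without the 3. Camk2a, a calcium-dependent kinase of synapses, and Cpne5 were highest in FOD-CT replicate 1, the sham with spinal cord markers, at 45.2 and 63.5 CPM, against 16.3 to 25.3 and 2.78 to 5.58 CPM in the other FOD-CT libraries. With the 3 left out, their interactions went from -1.84 to -1.33 and from -3.52 to -1.38.

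Channels and receptors of nociceptors, the neurons that detect harmful stimuli, leaned the same way. Of 21 tested, 20 lay below 0 (median -0.68, or -0.24 without FOD-CT replicate 3), 0 had p under 0.05, and the median injury change was 0.31 on SOD and -0.36 on FOD. In the fit of 11, 20 of 22 lay below 0 (median -0.65), and 4 had p under 0.05, where 1.88% of all genes lay below 0 at that level. These 4 were Scn10a (-0.93), the Nav1.8 channel, Trpa1 (-0.85), the receptor for irritants, Htr3a (-1.05), a serotonin-gated channel, and Kcnk18 (-2.41), a background potassium channel. Trpa1 was 12.4, 85.9, 48.5 and 37.8 CPM in SOD-CT, 100, 113 and 116 CPM in SOD-CCI, 15.2, 48.1 and 46.8 CPM in FOD-CT and 19, 59.9, 42.3 and 48.9 CPM in FOD-CCI. Every SOD-CCI library lay above every SOD-CT library, and the FOD groups overlapped, with SOD-CT, FOD-CT and FOD-CCI replicate 1 lowest in their groups. Its interaction was -1.04 ± 0.75 and -0.85 ± 0.38 without the 3. Scn10a was 129, 344, 333 and 145 CPM in SOD-CT, 288, 327 and 271 CPM in SOD-CCI, 46.3, 217 and 279 CPM in FOD-CT and 69.2, 169, 129 and 123 CPM in FOD-CCI. Among the 11 libraries, all FOD-CCI libraries were below both remaining FOD-CT libraries, and the SOD groups overlapped. The sensory neuron marker sum, which is not adjusted for here, was 33510 and 35970 CPM in those FOD-CT libraries and 20970 to 27590 CPM in those FOD-CCI libraries, and its part in the nociceptor result was not tested.

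Nerve injury genes of sensory neurons, by contrast, mostly kept their change. Of 19 tested, 16 were higher after CCI on SOD and 12 on FOD at p under 0.05 (5.05% and 3.2% of all genes). Of the 16, 15 were kept, against 325 of the 731 genes higher on SOD at that level. Of the 19, 0 had an interaction p under 0.05. The median interaction was -0.19 with a median SE of 0.95. With the 3 left out, 11 rose on SOD and 13 on FOD by edgeR's adjusted p, where 1.32% and 3.47% of all genes were called. Of those picked on SOD 17 of 17 were kept, against 967 of 1904 over all genes and 592 of the 922 higher on SOD. The median interaction was 0.41 with a median SE of 0.58. FOD-CCI replicate 1 was left out partly because this list was at sham level there, so these counts are not independent of that choice. With the replicate block as well 0 were called on either diet, and 16 on SOD and 17 on FOD were higher at an unadjusted p under 0.05. Adcyap1, the neuropeptide PACAP, was 9.78, 52.5, 28.4 and 33.5 CPM in SOD-CT, 236, 214 and 208 CPM in SOD-CCI, 29.8, 42.6 and 36.7 CPM in FOD-CT and 18.4, 98.6, 224 and 225 CPM in FOD-CCI. The CCI libraries lay above the shams on both diets except for FOD-CCI replicate 1, which was below every FOD sham. Its interaction was -0.86 ± 0.88 and, without the 3, -0.32 ± 0.44. Arg1, arginase 1, changed sign, from -0.79 ± 1.22 to 1.24 ± 0.54, with 0 CPM in SOD-CT replicate 1 and 7.81 CPM in FOD-CT replicate 1 against 0.996 to 2.43 CPM in the other shams. Csf1, which draws in macrophages, had changes of 2.31 and 1.89, and Gap43, a growth cone protein, of 1.85 and 1.68.

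Macrophage, complement and antigen presentation genes differed between the diets in the other direction, and more so without the 3 libraries. Of 17 tested, 17 lay above 0 in both fits. With all 14 libraries the median interaction was 0.91 and Tyrobp alone had p under 0.05. Without the 3 the median was 1.80 (0.45 on SOD and 2.34 on FOD) and 14 had p under 0.05, while 13 rose on FOD and 0 were called on SOD by edgeR's adjusted p. Over all genes in that fit 6.86% had an interaction p under 0.05, and 3.47% were called on FOD and 1.32% on SOD. These values depended on the libraries and on the block. The median of 0.91 was 0.42 without FOD-CCI replicate 4 and -0.13 with the replicate block, where 7 of 17 lay above 0, and the median of 1.80 became 1.41 with the block, where 17 of 17 lay above 0, 7 had p under 0.05 and 0 were called on FOD. Lyz2, the lysozyme of macrophages, was 85.1, 255, 230 and 426 CPM in SOD-CT, 242, 380 and 357 CPM in SOD-CCI, 152, 108 and 202 CPM in FOD-CT and 54.2, 1560, 686 and 1290 CPM in FOD-CCI. FOD-CCI replicates 2 to 4 lay above every other library and replicate 1 below every other, and the SOD groups overlapped. Its changes were 0.39 and 2.54, an interaction of 2.15 ± 1.06, and without the 3 libraries 0.09 and 2.92, an interaction of 2.83 ± 0.54, with the rise on FOD called (adjusted p = 0.0164, edgeR).

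C1qa, a chain of the complement trigger C1q, was 13.6, 48, 33.2 and 36.2 CPM in SOD-CT, 42.3, 61.9 and 65.5 CPM in SOD-CCI, 66.3, 17.9 and 24.9 CPM in FOD-CT and 56.9, 96.5, 97.8 and 183 CPM in FOD-CCI. The FOD groups overlapped only through the replicates with spinal cord markers, and the SOD groups only through SOD-CT replicate 2. Its interaction went from 0.79 ± 0.70 to 2.02 ± 0.41. Tyrobp, an adaptor of myeloid receptors, had 1.90 ± 0.80 and 2.86 ± 0.60, and C3, the central complement protein, 1.21 ± 1.13 and 3.25 ± 0.89, with FOD-CCI replicate 2 at 87.2 CPM against 31.5 to 38.5 CPM in the rest of its group. Summed over the list, FOD-CT had 839, 323 and 613 CPM and FOD-CCI 458, 2810, 1940 and 3960 CPM, against 266, 891, 765 and 860 CPM in SOD-CT and 922, 1370 and 1260 CPM in SOD-CCI. The FOD shams without spinal cord markers lay below the SOD shams other than replicate 1, and 3 FOD-CCI libraries above every SOD-CCI library. On SOD the sum was higher in every CCI than in every sham library, though narrowly (922 against 891 CPM at the closest). Red cell markers moved the same way. They summed to 867, 789 and 350.3 CPM in FOD-CT and 569.9, 22730, 1794 and 1401 CPM in FOD-CCI, against 1294, 430.8, 127 and 9461 CPM in SOD-CT and 99.2, 294 and 669 CPM in SOD-CCI. The kept FOD-CCI libraries lay above the kept FOD-CT libraries and the SOD groups overlapped, and the part of blood in the macrophage result was not tested. Other genes among the 10 above 0 with the smallest interaction p without the 3 included Klra1 (4.16 ± 0.64), a lectin-like receptor of leukocytes, Gna15 (4.01 ± 0.69), a G protein subunit of blood cells, Cebpa (2.18 ± 0.43), a myeloid transcription factor, and Sla, a signalling adaptor of leukocytes, none of which passed the adjusted threshold. Klra1 and Gna15 were at most 0.561 CPM in FOD-CT replicates 2 and 3, so their size rests on low counts in a pair of libraries.

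**Figure D5:**
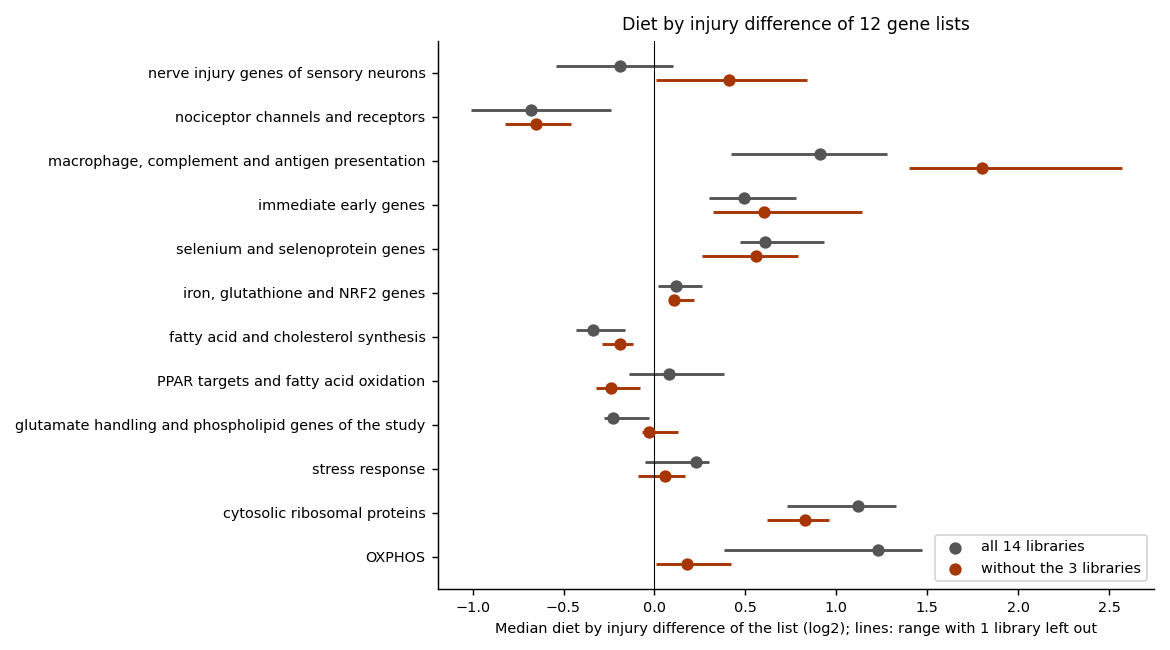
Median diet by injury difference (log2) of 12 gene lists with all 14 libraries and without the 3, with lines giving the range when 1 library was left out. The ribosomal protein median was 1.12 and 0.83, the macrophage median 0.91 and 1.80, the OXPHOS median 1.23 and 0.18 and the nociceptor median -0.68 and -0.65.

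Lipid genes, the group most directly tied to the diet, had small differences. Of 22 fatty acid and cholesterol synthesis genes, 21 lay below 0 (median -0.34) and 1 had p under 0.05; without the 3 libraries 20 lay below 0 (median -0.19), 2 had p under 0.05, and after length correction the median was -0.09. Srebf1, the transcription factor that drives fatty acid synthesis, was 80.3, 87.9, 81.7 and 64 CPM in SOD-CT, 99.4, 96.3 and 94.8 CPM in SOD-CCI, 121, 107 and 87.2 CPM in FOD-CT and 83, 75.7, 72.8 and 90.8 CPM in FOD-CCI. The SOD-CCI libraries lay above all SOD-CT libraries, and the FOD groups overlapped in a narrow range. Its changes were 0.30 and -0.38, and the interaction -0.69 ± 0.24, -0.60 ± 0.24 without the 3 and -0.42 after length correction. Dhcr7, the last enzyme of cholesterol synthesis, had -0.70 ± 0.45 and, without the 3, -0.50 ± 0.22. PPAR targets and fatty acid oxidation genes had medians of 0.08 and -0.24 with 0 members at p under 0.05 in either fit. All 7 picked on SOD shrank with all libraries, as did 63.7% of all genes so picked and 69.4% of those lower on SOD. Among them, Cd36 (243 CPM) and Fabp3 (310 CPM), both used by muscle to take up fatty acids, were highest in SOD-CT replicate 1, against at most 43.1 and 57.4 CPM in the other SOD-CT libraries.

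In the remaining lists few genes moved. Iron, glutathione and NRF2 genes had a median interaction of 0.12 with 0 of 21 at p under 0.05, and 0.11 with 1 of 21, the cystine transporter Slc7a11, without the 3. For glutamate handling and phospholipid genes the medians were -0.23 and -0.03, with Fdx1, an iron-sulphur electron carrier, at 1.39 and 0.62. Stress response genes had medians of 0.23 and 0.06, with Atf5 at 0.51 without the 3.

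Below 0, the 10 genes with the smallest interaction p in the fit of 11 were Sphkap, 8 more with a symbol and 1 without. Cacna2d3, a calcium channel subunit, was 73.2 and 84.4 CPM in FOD-CT replicates 2 and 3 and 29.3, 40.1 and 28.7 CPM in FOD-CCI replicates 2 to 4, and 50 to 67 CPM in the 6 SOD libraries kept. It fell on FOD by 1.28 (adjusted p = 0.0164, edgeR), the change on SOD was -0.30, and the interaction was -0.98 ± 0.26. With all 14 libraries the interaction was -0.70 ± 0.46. Ctnnd2, a catenin of neuronal contacts, Kcnh6, a potassium channel, Wipf3, an actin regulator, and Lgr4, a receptor for R-spondins, had -0.89, -1.20, -0.97 and -0.73. Zfp668, a zinc finger protein, and Ldoc1 had -1.97 and -1.14. Unc45b, a muscle myosin chaperone, had -4.15 without the 3 and 1.45 with all 14, with 168 CPM in SOD-CT replicate 1 and 29.7 CPM in FOD-CT replicate 2, the libraries highest in muscle markers, and at most 1.81 CPM elsewhere.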

How the data were processed

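Poly-A RNA of DRG was sequenced by the authors, and the submitters' processing notes name fastp, HISAT2 and featureCounts (version 1.5.0-p3) for trimming, alignment and counting per gene. The deposited gene counts are raw. Genome build, strand setting and the handling of multi-mapping reads are not given in the sources used here. The deposited FPKM table was not used, and columns of the 6 contralateral libraries entered no test.

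As in the study, a gene was tested where 90% of libraries (here 13 of 14) had 10 or more counts, which left 14484 of 39747 genes, 1844 without a symbol. The 4 group means were fitted to all 14 libraries with edgeR's quasi-likelihood test (version 4.0.16, R 4.3.3, TMM), with Benjamini-Hochberg adjustment over all genes; SE is the log2 change divided by the square root of F. The study used DESeq2, which was run as an alternative (version 1.42.0), as were limma voom with sample quality weights (version 3.58.1), RLE factors, no filter, the 3 libraries left out, each library left out and a replicate block. Length correction (lowess, span 0.3), leaving libraries out of the remaining 11, and the block without the 3 were added after seeing the data. The scripts were tested on simulated data with a smaller spread than these libraries had, so that test does not measure how many genes could be called here. No replicate pair agreed within sampling noise (chi-square per gene 28.1 to 879). Of 442 symbols listed, 438 were found.

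Genes named were the 10 with the smallest interaction p in each direction in both fits, the 10 that flipped at p under 0.05 on both diets, the 10 that shrank, and from each list the study's genes and up to 4 with the smallest interaction p; genes without a symbol were counted only, and 1 gene that the rule names is not reported here. Other list members are named only to describe their list. The members, lists and the 3 libraries were chosen with earlier results of these data known. The sequence windows and their starts are from RefSeq (GRCr8).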

Additional observations from a re-analysis of the deposited data

Results flagged for a closer look

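In groups of 4, the library furthest out was set against the rest for every named gene. Of 226 groups, 28 had a gap beyond Dixon's 95% critical value. The genes were named partly for their interaction p in these libraries, and the groups share libraries. The count can therefore not be set against a chance rate. SOD-CT replicate 1, the library highest in muscle markers, stood apart with high levels of Unc45b (168 CPM, others 0.778 to 1.53), Aamdc (87.2, others 5.57 to 14.5), Sephs2 (69.3, others 31.5 to 34), Cd36 (243, others 14.3 to 43.1), Fabp3 (310, others 43.1 to 57.4), Acadl (404, others 102 to 125), Chpt1 (69.4, others 10.4 to 19.9) and Atf5 (305, others 84.4 to 109). The same library was low in Sla (0 CPM, others 2.92 to 3.12), Ctnnd2 (8.76, others 33.9 to 36.1), Dhcr7 (18.4, others 56.1 to 63.4) and Eif2ak4 (2.65, others 16.8 to 19.6).

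FOD-CCI replicate 2, the library highest in red cell markers, was high in Atg10 (11.4 CPM, others 6.83 to 7.51), Igha (294, others 1.43 to 3.87), Mmp13 (31.5, others 0.854 to 1.81), Commd3 (140, others 95.7 to 103), Actr6 (125, others 60.7 to 65.9), C3 (87.2, others 31.5 to 38.5), Ncoa4 (355, others 212 to 234) and Dnajb9 (120, others 85.2 to 91.2). It was also high in Cox7b (778 CPM, others 239 to 301), Atp5e (706, others 267 to 289), Atp5j2 (602, others 345 to 365) and Ndufa5 (337, others 178 to 185). SOD-CT replicate 4 was high in Igha (79.6 CPM, others 0.636 to 10.9). FOD-CCI replicate 1, which carried spinal cord markers, was high in the astrocyte glutamate transporter Slc1a3 (139 CPM, others 18.7 to 37) and in Glud1 (753, others 257 to 284), and FOD-CCI replicate 3 was low in Mgll (55.5 CPM, others 72.2 to 73).

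Outside the left libraries, spinal cord glia markers summed to 6440 CPM in contralateral FOD-CCI replicate 1, against 353 to 590 CPM in the SOD-CT libraries, and its sensory neuron markers summed to 4540 CPM.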

How the results depend on the processing

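No gene was called for the interaction with RLE factors, voom quality weights, no low-count filter, the replicate block or any 1 library left out of the 14. DESeq2 called 42, and 39 of these had an unadjusted edgeR p under 0.05 without the 3 libraries. With libraries left out in turn the number called was 0 to 25, the 25 arising from the 11 libraries without FOD-CT replicate 3, which leaves 1 FOD-CT library whose spread is assumed to equal that of the other groups. Genes at an unadjusted interaction p under 0.05 (725) numbered 1126 with voom weights, 1588 without the filter, 435 with the replicate block and 317 with the block and without the 3. They ranged from 417 to 1549 with libraries left out in turn, lowest without FOD-CCI replicate 2 and highest from the 11 without FOD-CCI replicate 3. Flips (242) numbered 373 without the filter, 149 after length correction and 48 with the block and without the 3, and ranged from 73 to 414 with libraries left out; without SOD-CT replicate 1 there were 136. Shrinks (1278) numbered 719 without the 3 and 317 with the block as well, and ranged from 373 to 1983; without SOD-CT replicate 1 there were 618. The cause of these shifts was not tested, except that fewer samples enter such fits and more genes are tested without the filter.

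Replicate numbers did not pair the samples across the 4 groups, since 5 of 19 pairs with the same number had deviations correlated above 0.1 (-0.25 to 0.42). Within FOD, however, all 3 pairs of a sham and a CCI library did (0.18 to 0.42), and within SOD none of 3. The highest, 0.42, was that of FOD-CT and FOD-CCI replicate 1, which both carried spinal cord markers. With the replicate block, a fit that pairs by that number, the medians of the macrophage and nerve injury lists were -0.13 and -1.05, and without the 3 libraries 1.41 and 0.62. The block alone reversed Cd163 (-0.1) and Cbs (2).

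Among the named genes of the lists, signs turned as follows. With voom weights Unc45b was -2, Ecel1 1.25, Stmn4 0.9, Arg1 1.05, Pstk -0.06, Cbs 3.73, Chpt1 -0.1, Slc1a3 0.13, Creb1 0, Pcyt1a 0.09 and Atf4 -0.27. Without the 3 libraries Unc45b was -4.15, Ecel1 0.07, Stmn4 0.8, Arg1 1.24, Sephs2 -0.01, Cbs 3.54, Acadl -0.06, Slc1a3 0.27, Glud1 -0.03, Pcyt1a 0.16, Atf4 -0.18 and Ddit3 -0.33. Without the 3 and with the replicate block Unc45b was -3.71, Ecel1 0.78, Stmn4 0.98, Arg1 1.1, Sephs2 0, Cbs 4.63, Chpt1 -0.22, Glud1 -0.01, Pcyt1a 0.03, Pcyt1b 0.03, Asns 0.22 and Atf4 -0.28. After length correction Ddit3 was -0.17.

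With libraries left out in turn, the interactions that changed sign ranged as follows. For nerve injury genes they were -2.88 to 2.19 for Ecel1, -1.16 to 1.13 for Stmn4, -1.18 to 0.1 for Cacna2d1 and -1.24 to 1.72 for Arg1. For lipid and glutamate genes they were -0.37 to 2.31 for Fabp3, -0.15 to 1.06 for Acadl, -0.34 to 1.68 for Chpt1, -0.09 to 1.46 for Glul, -1.76 to 1.19 for Slc1a3, -0.5 to 0.56 for Glud1, -0.54 to 0.45 for Mgll, -0.31 to 0.45 for Pcyt1a, -0.56 to 0.41 for Pcyt1b and -0.09 to 0.71 for Creb1. For the others they were -5.06 to 4.73 for Unc45b, -0.19 to 0.52 for Sephs2, -0.8 to 5.33 for Cbs, -0.09 to 0.57 for Dnajb9, -0.52 to 0.82 for Atf4 and -0.56 to 0.5 for Ddit3. Medians of the lists with libraries left out of the 14 were 0.73 to 1.33 for ribosomal proteins, 0.38 to 1.47 for OXPHOS, 0.42 to 1.28 for macrophage genes and -1.01 to -0.24 for nociceptor genes. They were 0.3 to 0.78 for immediate early genes, 0.47 to 0.93 for selenium genes, 0.02 to 0.26 for iron genes, -0.43 to -0.16 for lipid synthesis and -0.28 to -0.03 for glutamate and phospholipid genes. The medians of 3 lists changed sign, at -0.54 to 0.1 for nerve injury genes, -0.14 to 0.38 for PPAR targets and -0.05 to 0.3 for stress response genes.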

Other observations

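The 6 contralateral (right) libraries of CCI rats entered no comparison, and no right libraries of sham rats were used here. The summed level of the macrophage list was 179, 292 and 369 CPM in SOD-CCI contralateral replicates 1 to 3 and 874, 649 and 1180 CPM in FOD-CCI contralateral replicates 1 to 3. Every FOD library lay above every SOD library, and FOD replicate 1 carried spinal cord markers. Ribosomal protein genes summed to 25800, 18300 and 13000 CPM on SOD and 30800, 28900 and 38100 CPM on FOD, again without overlap, and the difference of short against long genes was 0.25, -0.26 and -0.44 on SOD and 0.01, 0.23 and 0.44 on FOD on the log2 scale.

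Klf4 was 0.943, 6.63 and 2.26 CPM on SOD and 9.39, 8.87 and 13 CPM on FOD in these right ganglia, and Sphkap 42.3, 47.3 and 58.1 CPM on SOD and 15.5, 27.3 and 18.1 CPM on FOD. Both lay in the order seen in the left CCI libraries, in which Klf4 was 2.76 to 4.89 CPM on SOD and 8.49 to 21.2 CPM on FOD, and Sphkap 37.1 to 47.6 and 15.5 to 23.8 CPM. Scn3a was 2.32 to 4.15 CPM on SOD and 3 to 6.63 CPM on FOD, with overlap. No test was made on these libraries. Their library names carry the same numbers as left CCI libraries, so by these names they come from the same rats and are not a second set of animals.

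Among the 25 genes called when FOD-CT replicate 3 was left out of the 11 libraries, 15 lay above 0 and 10 below. They included Clec7a, Csf2rb, Cd300le, Tlr7, Pycard and Sla, genes of myeloid and other leukocytes, and Unc45b, Pfkm, Pgm1 and Phka1, genes active in skeletal muscle. FOD-CT replicate 2, the sham library left in that fit, had 3.09% muscle counts. These names were chosen after their values were seen.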
